A study of Mus musculus with 46 samples.

Results

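Lipoprotein lipase and 6 genes that bind, mature, inhibit or accompany it were followed through all libraries of a mouse liver study: Lpl, Gpihbp1, Lmf1, Lipc, Angptl4, Angptl8 and Apoc2. They were chosen by symbol, as the rows of the count tables that carry these names, and all 7 were found among 55416 genes. Bulk RNA was sequenced from 46 livers, all male, which form 10 groups. In 8 of the groups the mice came from a line on C57BL/6JBomTac in which Plvap, which encodes a protein of the diaphragms over caveolae and endothelial fenestrae, was deleted by Lrat-Cre (labelled Plvaptm1.1Salm-Tg(Lrat-cre)1Rshw), a driver active in hepatic stellate cells. The controls were littermates. The chow-fed pair fasted for 12 h held 5 knockouts and 6 controls, and the refed pair, fasted for 10 h and fed for 2 h, held 4 of each. A pair on western diet plus fructose water held 4 knockouts and 5 controls, and a pair on high-fat diet and plain water held 5 of each. Both diets were given for 6 weeks and ended with a 12 h fast. The last pair compared 4 whole-body knockouts of Cav1 (STOCK Cav1tm1Mls/J), the gene of the principal caveolar coat protein, with 4 C57BL/6N wild types, on chow and fasted for 6 h by the sample labels, while a general protocol gives 12 h for chow-fed mice. The age of the mice is not given in the labels. Genotype and mouse stock differ together in that last pair, so their parts in a difference cannot be told apart.

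Lipoprotein lipase splits the triglyceride of chylomicrons and very low density lipoproteins in capillaries, chiefly of fat, heart and muscle, and the fatty acids pass into the tissue. GPIHBP1 on endothelial cells carries the enzyme across the capillary wall and holds it there, LMF1 folds it in the endoplasmic reticulum, and apolipoprotein C-II is its cofactor. ANGPTL4 and ANGPTL8 restrain it, the first after fasting and the second after feeding, while hepatic lipase, the product of Lipc, is a related enzyme that hepatocytes secrete. Adult mouse hepatocytes make little Lpl, and macrophages and fat cells make more.

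Libraries held 6656342 to 23311539 counts. Plvap averaged 5.80 ± 1.03 CPM (counts scaled to library size) in knockout livers and 28.97 ± 4.91 CPM in controls after the fast (SD, n = 5 and 6), and its libraries did not overlap in any of the 4 Plvap pairs. Cav1 averaged 0.768 ± 0.489 CPM in Cav1 knockouts and 4.66 ± 0.909 CPM in wild types (SD, n = 4 each), and edgeR's quasi-likelihood test gave a log2 fold change of -2.62 ± 0.35 (SE, adjusted p = 0.0015). The liver label was checked against summed hepatocyte markers (Alb, Apoa1, Ttr, Tat, Cyp2e1 and Hnf4a), which came to at least 44200 CPM in every library. This sum was higher in knockouts than in controls in all 5 pairs, at 85025 to 107326 CPM in fasted Plvap knockouts and 50379 to 65427 CPM in fasted controls, and of the 6 Alb, which encodes albumin, was called there (log2 fold change 0.96 ± 0.12, adjusted p = 0.000582). The other markers were not called in that pair, with log2 fold changes from -0.02 (Cyp2e1) to 0.54 (Tat). Cyp2e1 had -0.26 refed, -0.07 on western diet, 0.12 on high-fat diet and -0.29 in Cav1 knockouts, none of them called. Alb was not called refed (0.75) or on western diet (0.67). It was called higher on high-fat diet (1.13 ± 0.17, adjusted p = 0.00792) and in Cav1 knockouts (0.53 ± 0.13, adjusted p = 0.0406). Apoa1 was called higher in Cav1 knockouts (0.80 ± 0.11, adjusted p = 0.00143). Averaged over the 4 Plvap pairs, Alb (0.88 ± 0.07), Apoa1 (0.30 ± 0.07) and Ttr (0.27 ± 0.07) were called higher. The part of the marker sum in the results below was not tested. In whole liver, fewer cells of a type and less RNA per cell cannot be told apart.

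On the assembly of the files, GRCm39, Lpl lies on chromosome 8 at 69333143 to 69360100 (plus strand), Gpihbp1 on chromosome 15 at 75468477 to 75471330 (plus), Lmf1 on chromosome 17 at 25798059 to 25881800 (plus) and Angptl4 on chromosome 17 at 33992724 to 34000804 (minus). Lipc lies on chromosome 9 at 70705410 to 70859508 (minus), Angptl8 on chromosome 9 at 21746806 to 21748643 (plus) and Apoc2 on chromosome 7 at 19405504 to 19411866 (minus). Angptl8 sits inside Dock6, which runs on the other strand, with 0 shared exon bases. The strand setting of the counting is not given in the sources used here.

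Ranked by the median over 46 libraries per kilobase of exon, Angptl4 (87.2 CPM per kilobase) and Lipc (84.8) stood highest. Angptl8 followed at 19.2 and Gpihbp1 at 7.64 CPM per kilobase. Lpl (2.77), Apoc2 (2.67) and Lmf1 (2.43) were lowest on this scale. The order depends on the division by summed exon length. By median CPM alone, Lmf1 (33.0) and Lpl (29.1) lay above Gpihbp1 (19.5) and Angptl8 (16.6). Angptl8 and Lpl varied most, with a 33.2-fold and a 25.1-fold span of CPM from the lowest to the highest library, then Angptl4 with 19.4-fold. Gpihbp1 and Lmf1 varied least, with spans of 2.25-fold and 2.50-fold.

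The Apoc2 row cannot be read as the level of the transcript. It held 13 to 95 counts per library, a median of 2.17 CPM. In the fasted table its neighbours Apoc4, Apoc1 and Apoe averaged 31130, 54112 and 250410 counts. Of the 813 exon bases of Apoc2, 646 (79.5%) are also exon of the predicted gene Gm44805 on the same strand, which averaged 70.8 counts there. How reads in shared bases were assigned is not given in the sources used here, so all Apoc2 values below are those of the row as deposited and are uncertain.

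**Figure D1:**
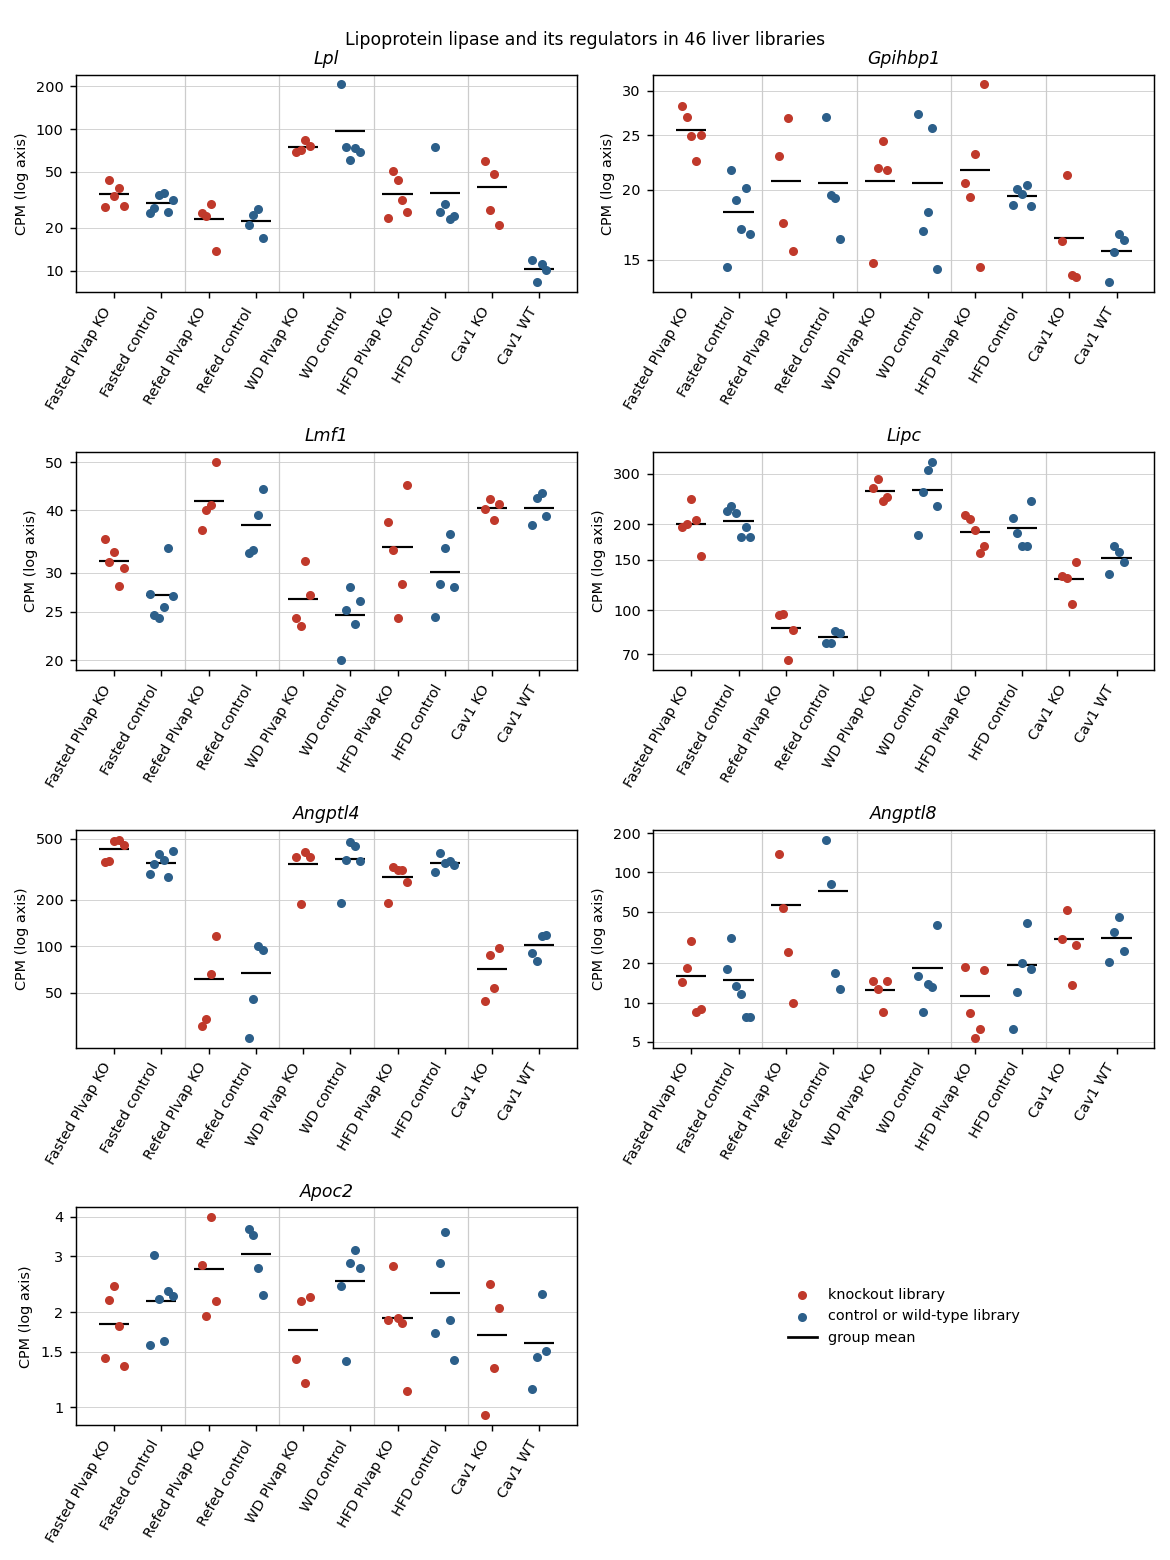
CPM (log axis) of the 7 genes in each of 46 liver libraries, with the 10 groups along the horizontal axis, knockout libraries in red left of their control or wild-type libraries in blue, and a bar at each group mean. Lpl is highest on western diet in both genotypes, Lipc and Angptl4 are low in refed livers, Angptl8 is high in some refed livers, and Gpihbp1 stands higher in fasted Plvap knockouts (22.5 to 28.2 CPM) than in fasted controls (14.5 to 21.7 CPM).

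The first question was whether deleting Plvap in stellate cells changed these genes within each feeding state. One member, Gpihbp1, was higher in fasted knockouts, and 0 of 7 were called in refed, western diet or high-fat diet livers. For the fasted pair the share of all genes called was 2.25%. For the other 3 pairs the shares of all genes called were 0.0227%, 0.0148% and 0.281%. In those 3 pairs 0 members had an unadjusted p under 0.05 in edgeR, and DESeq2 and limma-voom also called 0.

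Gpihbp1, whose product is the endothelial anchor of lipoprotein lipase, had 28.2, 26.9, 24.9, 22.5 and 25.01 CPM in the 5 fasted knockouts. The 6 fasted controls had 14.5 at the lowest, 18.1 at the median and 21.7 at the highest CPM. Each knockout library lay above each control library. The log2 fold change was 0.48 ± 0.11 (SE), with an adjusted p of 0.0296 in edgeR. Leaving out 1 of the 11 libraries at a time gave 0.42 to 0.53 on the log2 scale with adjusted p-values of 0.0268 to 0.0804. The call was lost in 5 of the 11 cases, without knockout replicate A, B or E or control replicate A or C. Summed endothelial markers, 10 genes, were 231 to 275 CPM in fasted knockouts and 249.4 to 300.4 CPM in fasted controls, ranges that overlap. Of those 10, Lyve1 was higher (log2 fold change +0.64, adjusted p = 0.0347) and Ptprb lower (-0.40, adjusted p = 0.0288), and their part in the Gpihbp1 difference was not tested.

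In the other states the Gpihbp1 libraries of the genotypes overlapped. Refed livers had 22.95, 17.4, 26.9 and 15.6 CPM in knockouts and 26.9, 19.6, 19.3 and 16.4 CPM in controls. On western diet the values were 14.8, 21.9, 24.4 and 21.7 CPM in knockouts and 27.3, 16.9, 18.2, 25.8 and 14.4 CPM in controls. On high-fat diet knockouts spread widely at 20.6, 19.4, 23.1, 14.6 and 30.8 CPM, while controls lay close together at 18.8, 20.04, 19.7, 20.4 and 18.7 CPM. The log2 fold changes of knockouts over controls were 0.02 ± 0.21, 0.01 ± 0.19 and 0.16 ± 0.18 (SE) for refed, western and high-fat livers. Whether these effects differ from that of fasted chow livers was tested as a difference of log2 fold changes. It was -0.46 ± 0.25 for refed (SE, adjusted p = 0.635), -0.47 ± 0.25 for western diet (adjusted p = 1.00) and -0.32 ± 0.24 for high-fat diet (adjusted p = 0.772). In each of these 3 tests edgeR called 0 of 14234 genes, with 1192, 437 and 1164 at an unadjusted p under 0.05, and 0 members by edgeR, DESeq2 or limma-voom. A Gpihbp1 effect particular to fasted chow livers was therefore not shown.

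**Figure D2:**
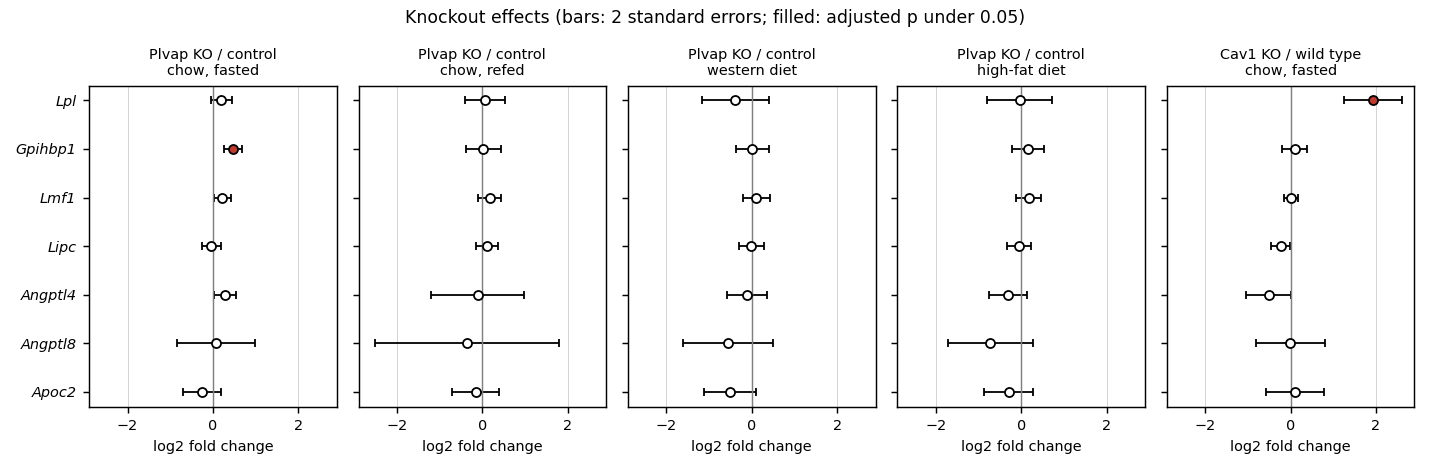
Log2 fold change of knockout over control or wild type (horizontal axis) for the 7 genes in the 5 knockout comparisons, with bars of 2 standard errors and filled points for an adjusted p under 0.05 in edgeR. Gpihbp1 in fasted Plvap knockouts (+0.48) and Lpl in Cav1 knockouts (+1.93) are the filled points, and Angptl8 has the widest bars.

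Lpl did not separate the Plvap genotypes. Fasted knockouts had 28.02, 43.7, 33.7, 38.5 and 28.6 CPM, and fasted controls had 25.4 at the lowest, 29.8 at the median and 35.1 at the highest CPM. Refed livers had 25.6, 24.3, 29.5 and 13.8 CPM in knockouts and 20.98, 24.6, 27.2 and 17.1 CPM in controls. Both pairs overlapped, with log2 fold changes of 0.19 ± 0.12 (SE, adjusted p = 0.443) after the fast and 0.06 ± 0.23 (adjusted p = 0.961) after refeeding. On western diet knockouts had 69.3, 71.3, 83.2 and 75.8 CPM and controls 207, 74.1, 60.2, 73.4 and 69.4 CPM. On high-fat diet knockouts had 23.5, 50.3, 43.3, 31.7 and 25.9 CPM and controls 74.8, 25.9, 29.7, 23.3 and 24.2 CPM. In each diet one control library, replicate A, lay far above the rest of its group, and it carried the most reads of adipocyte markers there. The log2 fold changes were -0.38 ± 0.40 (SE, adjusted p = 0.789) on western and -0.03 ± 0.38 (adjusted p = 0.98) on high-fat diet. Without those 2 control libraries both turned positive, at 0.11 ± 0.17 (adjusted p = 0.905) and 0.42 ± 0.17 (adjusted p = 0.222), an alternative chosen after the values were seen.

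Lmf1, whose product folds the lipases, was above controls in all 4 pairs by a fitted 0.10 to 0.22 on the log2 scale, and in none past the threshold. Fasted knockouts had 34.99, 31.6, 33.05, 28.2 and 30.7 CPM and fasted controls 24.4 at the lowest, 26.2 at the median and 33.6 at the highest CPM, which overlap through control replicate E. Averaged over the 4 states the log2 fold change was 0.17 ± 0.07 (SE, adjusted p = 0.147), and that of Gpihbp1 was 0.17 ± 0.09 (adjusted p = 0.293). This mean gave 0 members called, with 2 at an unadjusted p under 0.05 in edgeR and 0 called by DESeq2 or limma-voom, and 5.58% of all genes called.

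Lipc, the gene of hepatic lipase, was not called in any Plvap pair. Its Plvap log2 fold changes were -0.04 ± 0.11 (SE) fasted, 0.11 ± 0.13 refed, -0.01 ± 0.15 on western and -0.05 ± 0.14 on high-fat diet. Intervals of 2 standard errors were -0.27 to 0.18, -0.14 to 0.36, -0.31 to 0.28 and -0.33 to 0.23 in the same order.

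The inhibitors were not called in any Plvap pair. Fasted knockouts had 354, 356, 482, 492 and 456 CPM of Angptl4 and fasted controls 281 at the lowest, 353 at the median and 418.1 at the highest CPM, with a log2 fold change of 0.28 ± 0.12 (SE, adjusted p = 0.24). On western diet Angptl4 was 188 to 412.1 CPM in knockouts and 190.02 to 477 CPM in controls, and on high-fat diet it averaged 281 ± 56.2 CPM in knockouts and 349 ± 35.7 CPM in controls (SD, n = 5 each). The libraries of the genotypes overlapped in all 3 states. For Angptl8 the standard error of the Plvap effect was 0.46 fasted, 1.08 refed, 0.53 on western and 0.50 on high-fat diet, against estimates of +0.07, -0.37, -0.56 and -0.73. The widest interval of 2 standard errors, that of refed livers, ran from -2.53 to 1.79 on the log2 scale. The Apoc2 row had log2 fold changes of -0.25 fasted, -0.15 refed, -0.51 on western and -0.29 on high-fat diet, none past the threshold.

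The second question was the effect of whole-body loss of Cav1. Lpl was 3.81-fold higher in Cav1 knockouts, and the other 6 genes were not called. Of all genes 4.68% were called in this pair. The Cav1 knockouts had 59.3, 26.6, 48.4 and 21.04 CPM of Lpl and the wild types had 11.8, 8.23, 11.04 and 10.1 CPM. The groups did not overlap, and the knockouts fell into a higher and a lower pair of livers. The log2 fold change was 1.93 ± 0.33 (SE, adjusted p = 0.0153, edgeR). Without 1 library at a time it was 1.64 to 2.13 with adjusted p-values of 0.00278 to 0.0555, and the call was lost without wild-type replicate B, C or D. It was also lost without the filter on low counts (1.91, adjusted p = 0.055).

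Fat and macrophage markers were read beside this difference. Summed adipocyte markers were 5.89 to 8.98 CPM in Cav1 knockouts and 6.74 to 8.84 CPM in wild types, and Adipoq and Plin1, 2 defining genes of fat cells, had no count in any of the 4 knockout libraries. Summed macrophage markers, 9 genes, were 277 to 454 CPM in knockouts and 213 to 305 CPM in wild types, overlapping, and the 4 markers of lipid-associated macrophages summed to 41.1 to 67.7 CPM and 39.8 to 43.2 CPM in the same order, also overlapping. Summed endothelial markers were 235 to 343 CPM in knockouts and 338 to 378.9 CPM in wild types, with Clec4g, a sinusoidal endothelial lectin, lower (log2 fold change -0.68, adjusted p = 0.0011). The part of fat cells, macrophages and endothelium in the Lpl difference was not tested.

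The Lpl values of the Cav1 wild types were the lowest of all 10 groups. They averaged 10.3 ± 1.54 CPM (SD, n = 4), and each lay below each refed control, the next group in rank. The Cav1 knockouts averaged 38.8 ± 18.03 CPM and overlapped with the fasted chow livers of the Plvap line. Both stocks and the Plvap line also differ in strain, length of fast and table, which cannot be told apart.

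Among the other members in the Cav1 pair, Gpihbp1 was 16.2, 21.2, 14.1 and 13.98 CPM in knockouts and 13.7, 15.5, 16.6 and 16.3 CPM in wild types. Lmf1 was 40.3, 42.1, 38.3 and 41.2 CPM in knockouts and 37.4, 42.4, 43.4 and 39.05 CPM in wild types, with the narrowest interval of any member in this pair (log2 fold change -0.15 to 0.18 at 2 standard errors). Lipc had 132, 129, 105 and 148 CPM in knockouts and 134, 168, 159 and 147 CPM in wild types. The groups overlapped for all 3. Angptl4 had 44.3, 87.8, 53.4 and 98.1 CPM in knockouts and 89.99, 80.5, 117 and 119 CPM in wild types, and its log2 fold change of -0.51 ± 0.26 (SE) had an adjusted p of 0.334. Angptl8 had 30.9, 51.2, 13.7 and 27.8 CPM in knockouts and 20.7, 34.9, 45.1 and 24.9 CPM in wild types, and the Apoc2 row 0.943 to 2.45 CPM in knockouts and 1.14 to 2.29 CPM in wild types.

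More members were called between refed and fasted livers than in any knockout pair. In refed livers Angptl4 and Lipc were lower and Angptl8 and Lmf1 were higher than in fasted livers, in both genotypes, and Lpl, Gpihbp1 and Apoc2 were not called. Refed and fasted livers come from different tables, so table and feeding cannot be told apart, and 47.2% of all genes were called in knockouts and 46.9% in controls. A count of 4 of 7 members is near that background. Among the refed livers 17 genes that averaged at least 1 CPM elsewhere had no count in any of the 8 libraries, 14 of them mitochondrial by symbol. The 2 comparisons share no libraries, but they share a fit and the same tables. Refed livers of the same letter also resembled each other across genotypes, so the comparisons are not independent.

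The start regions of the 3 called genes with an entry in the RefSeq promoter table (GRCm38.p6, 250 bases before to 50 after the start site) are given because all 3 genes were called on refeeding, Angptl8 and Lmf1 higher and Lipc lower. Angptl4 has no entry. Lipc has 2 annotated starts. The windows are chr9:21835260-21835559 (plus strand) for Angptl8, chr17:25578924-25579223 (plus) for Lmf1, and chr9:70952172-70952471 and chr9:70934759-70935058 (minus) for the distal and the proximal start of Lipc. They read 5′ to 3′, and capitals mark matches to the motifs spelled out after them, on either strand.
Angptl8: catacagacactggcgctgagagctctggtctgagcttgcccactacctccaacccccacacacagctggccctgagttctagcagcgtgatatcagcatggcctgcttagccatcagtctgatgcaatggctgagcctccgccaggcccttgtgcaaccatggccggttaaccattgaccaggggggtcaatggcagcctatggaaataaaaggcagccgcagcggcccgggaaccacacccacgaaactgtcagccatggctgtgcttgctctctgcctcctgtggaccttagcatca
Lmf1: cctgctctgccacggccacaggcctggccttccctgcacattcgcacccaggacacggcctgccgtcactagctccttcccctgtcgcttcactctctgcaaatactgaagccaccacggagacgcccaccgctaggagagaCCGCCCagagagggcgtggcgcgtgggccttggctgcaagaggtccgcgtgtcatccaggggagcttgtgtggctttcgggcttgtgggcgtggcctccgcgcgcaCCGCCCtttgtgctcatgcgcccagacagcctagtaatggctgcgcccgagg
Lipc distal start: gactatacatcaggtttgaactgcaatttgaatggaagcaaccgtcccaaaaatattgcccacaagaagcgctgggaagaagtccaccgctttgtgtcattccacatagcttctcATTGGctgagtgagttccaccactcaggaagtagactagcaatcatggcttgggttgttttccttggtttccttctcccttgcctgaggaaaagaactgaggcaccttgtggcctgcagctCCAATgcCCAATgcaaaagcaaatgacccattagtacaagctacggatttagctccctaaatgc
Lipc proximal start: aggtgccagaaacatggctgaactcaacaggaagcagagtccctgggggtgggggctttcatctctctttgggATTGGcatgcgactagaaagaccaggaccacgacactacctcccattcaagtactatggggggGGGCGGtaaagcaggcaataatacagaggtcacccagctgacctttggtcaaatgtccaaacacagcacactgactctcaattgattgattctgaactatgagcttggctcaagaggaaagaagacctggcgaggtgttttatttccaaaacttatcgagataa

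The motifs searched on both strands were the E-box (spelled CACGTG), the TATA box (spelled TATAAA), the CCAAT box and the GC box (spelled GGGCGG), whose matches shown do not overlap one another. The Lmf1 window held GGGCGG on the minus strand at 2 places, beginning at -108 and -2 from the start site, and 35.7% of 32851 promoters hold it. The distal Lipc window held CCAAT at 3 places (-135, -14 and -7), and the proximal window CCAAT at -177 and GGGCGG at -114, where 37.4% of all promoters hold CCAAT. The Angptl8 window held none of the 4 motifs. CACGTG is in 7.15% and TATAAA in 13.6% of all promoters. GC content was 66.3% for Lmf1, 58.3% for Angptl8, and 47.0% and 48.7% for the Lipc windows, against a median of 52.7%. These are matches of letters, and no match says only that the letters are not in the window.

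Angptl4, the inhibitor made on fasting, showed the largest change among the members on refeeding. Refed knockouts had 30.1, 33.7, 66.2 and 116 CPM, against 354, 356, 482, 492 and 456 CPM in fasted knockouts. Refed controls had 25.4, 45.6, 101 and 94.4 CPM, against 281 at the lowest, 353 at the median and 418.1 at the highest CPM in fasted controls. No refed library reached the lowest fasted one. The log2 fold changes of refed over fasted were -2.77 ± 0.36 (SE, adjusted p = 1.81e-07) in knockouts and -2.38 ± 0.35 (adjusted p = 1.24e-06) in controls, lower in all refed livers of both genotypes.

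Angptl8, the inhibitor made on feeding, went the other way but unevenly. Refed knockouts had 138, 52.9, 24.3 and 9.98 CPM, against 14.3, 18.4, 29.5, 8.51 and 8.97 CPM in fasted knockouts. Refed controls had 178, 81.8, 17.00 and 12.7 CPM, against 7.69 at the lowest, 12.5 at the median and 31.5 at the highest CPM in fasted controls. Replicates A and B of both refed genotypes lay above all fasted libraries, and replicates C and D of both lay among them. The log2 fold changes were 1.85 ± 0.68 (SE, adjusted p = 0.0263) in knockouts and 2.28 ± 0.64 (adjusted p = 0.00441) in controls. Without refed replicate A they were 0.90 (adjusted p = 0.305) in knockouts and 1.31 (adjusted p = 0.102) in controls, and the knockout call was also lost without fasted knockout replicate D (1.68, adjusted p = 0.0645) or E (1.70, adjusted p = 0.0608).

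The refed livers of the same letter resembled each other across genotypes. Replicate A of both had the highest Angptl8 and the lowest Angptl4, and the libraries with low Angptl8 had high Angptl4. Over all genes, deviations from the group mean of same-letter refed livers correlated at r = 0.207 to 0.249 in the 4 pairs, against a mean of -0.0746 for other pairs. With the replicate letter as a block, the Plvap effect on refed Angptl8 was -0.22 ± 0.17 (SE, adjusted p = 0.594) in place of -0.37 ± 1.08. In an edgeR fit with such a block, the refed against fasted change of Angptl8 in knockouts was 1.52 (adjusted p = 0.0742) and no longer called. That block gave each letter the same effect in the fasted and diet tables, where letters did not pair. The lost call can therefore not be put down to the pairing of refed livers.

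**Figure D3:**
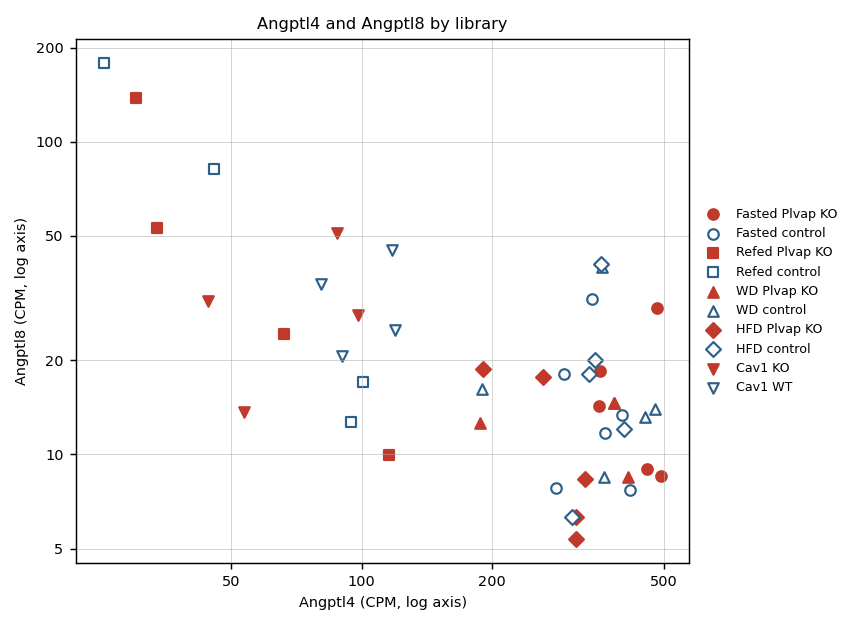
Angptl8 against Angptl4 in each of 46 libraries, both as CPM on log axes, with filled red symbols for knockouts, open blue symbols for controls or wild types, and shapes for the 5 experiments. Refed livers run from the upper left (178 CPM of Angptl8 with 25.4 CPM of Angptl4) to the lower middle, and fasted and diet livers lie at the right. The Cav1 experiment (44.3 to 119 CPM of Angptl4) overlaps the refed livers (25.4 to 116 CPM).

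Lipc was lower in refed livers with little spread. Refed knockouts had 96.4, 97.3, 66.8 and 85.3 CPM, against 195, 199.9, 246, 207 and 154 CPM in fasted knockouts. Refed controls had 76.9, 76.8, 84.8 and 83.5 CPM, against 180.4 at the lowest, 208 at the median and 231 at the highest CPM in fasted controls. The ranges were far apart in both genotypes, with log2 fold changes of -1.19 ± 0.15 (SE, adjusted p = 3.20e-08) in knockouts and -1.34 ± 0.14 (adjusted p = 1.93e-09) in controls. Lmf1 was higher by less: refed knockouts had 36.5, 40.01, 40.95 and 50.1 CPM, against 34.99, 31.6, 33.05, 28.2 and 30.7 CPM in fasted knockouts, and refed controls had 32.9, 33.3, 39.1 and 44.1 CPM, against 24.4 at the lowest, 26.2 at the median and 33.6 at the highest CPM in fasted controls. Knockout libraries did not overlap, and control libraries did, through fasted replicate E. The log2 fold changes were 0.43 ± 0.14 (SE, adjusted p = 0.0109) and 0.48 ± 0.13 (adjusted p = 0.00342) in knockouts and controls. With a trend on gene length removed, the knockout change of Lmf1, whose exons sum to 13589 bases, was 0.16 (adjusted p = 0.357), and without refed knockout replicate D it was 0.33 (adjusted p = 0.0652). Across all 14234 genes exon length and log2 fold change had a Spearman correlation of 0.231 in knockouts and 0.0759 in controls. Such a trend was not particular to refeeding. For knockout over control it was -0.211 fasted, 0.269 refed, -0.147 on western and -0.111 on high-fat diet, and -0.291 in the Cav1 pair.

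Lpl, Gpihbp1 and Apoc2 were not called on refeeding. The log2 fold changes of Lpl were -0.54 ± 0.32 (SE, adjusted p = 0.176) in knockouts and -0.41 ± 0.31 (adjusted p = 0.297) in controls, and they passed the threshold when only the compared groups were fitted, at adjusted p = 0.0497 in knockouts and 0.0225 in controls. Gpihbp1 was -0.27 ± 0.18 in knockouts and 0.19 ± 0.17 in controls (SE, adjusted p = 0.218 and 0.393). The Apoc2 row was 0.60 ± 0.28 in knockouts and 0.51 ± 0.26 in controls (SE, adjusted p = 0.0729 and 0.104), and past the threshold in both once the length trend was removed, at adjusted p = 0.00804 and 0.039. Summed macrophage markers, some of the cells that make Lpl, were 327 to 372 CPM in refed knockouts against 665 to 939 CPM in fasted knockouts, and 242 to 374 CPM in refed controls against 470.2 to 750.5 CPM in fasted controls. Those macrophage ranges do not overlap. Of the 9 markers edgeR called 5 lower in knockouts and 6 lower in controls, and 0 higher. Clec4f had -1.35 in knockouts and -1.15 in controls, and Cd5l -1.51 and -1.27. Csf1r had 0.03 and -0.04 in the same order, Cd68 -0.34 and -0.25, and Marco -0.43 and -0.70, none of these called. Summed adipocyte markers overlapped, at 8.01 to 22.5 CPM in refed knockouts against 14.2 to 17.1 CPM in fasted knockouts, and 7.26 to 33.5 CPM in refed controls against 13.2 to 26.01 CPM in fasted controls. Of the 5 adipocyte markers tested, edgeR called 4 higher in refed controls, with log2 fold changes of 2.94 for Adipoq, 3.79 for Plin1, 2.58 for Cfd and 4.53 for Retn (SE 1.07 to 1.36, adjusted p = 0.0431, 0.0234, 0.0466 and 0.00525). Fabp4, the other one tested, had -0.34 ± 0.42 in controls (SE, adjusted p = 0.541), where 46.9% of all genes were called. In knockouts edgeR called 0 of the 5, with 0 at an unadjusted p under 0.05. Fabp4 had -0.46 ± 0.45 there (SE, adjusted p = 0.419), and 47.2% of all genes were called. Fitted alone, the fasted pair had 1 and the refed pair 2 of the 7 adipocyte markers past the filter on low counts. The part of macrophages and fat cells in the Lpl values was not tested.

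**Figure D4:**
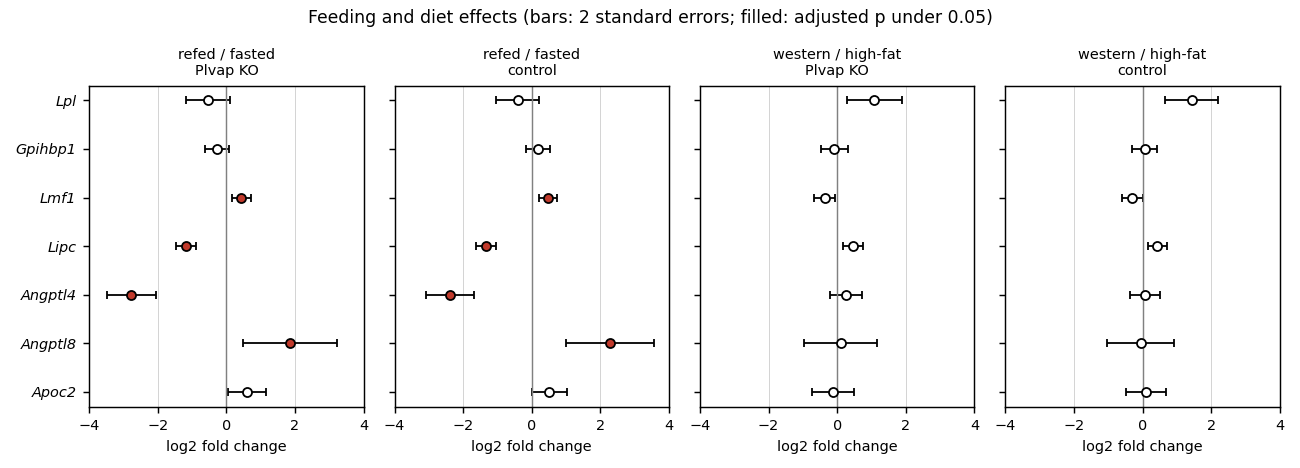
Log2 fold change (horizontal axis) of refed over fasted livers and of western over high-fat diet for the 7 genes, in Plvap knockouts left of controls, with bars of 2 standard errors and filled points for an adjusted p under 0.05 in edgeR. Lmf1 and Angptl8 lie right of 0 and Lipc and Angptl4 left of it on refeeding in both genotypes, and Lpl and Lipc lie right of 0 in western over high-fat diet without a call.

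Lpl was the member called between diets. It rose in western diet controls relative to chow controls, while its western diet value in knockouts stood at the threshold. It averaged 74.9 ± 6.17 CPM in western diet knockouts and 96.7 ± 61.7 CPM in western diet controls (SD, n = 4 and 5). High-fat livers held 34.9 ± 11.5 CPM in knockouts and 35.6 ± 22.1 CPM in controls (SD, n = 5 each), and fasted chow livers 34.5 ± 6.68 CPM in knockouts and 30.03 ± 4.15 CPM in controls (SD, n = 5 and 6). Each western diet library of either genotype lay above each fasted chow library. Western over chow the log2 fold change of Lpl was 1.13 ± 0.32 in knockouts (SE, adjusted p = 0.0509) and 1.70 ± 0.29 in controls (adjusted p = 0.000736), where 2.27% and 1.81% of all genes were called. In knockouts edgeR called 0 of 7 members, with 2 at an unadjusted p under 0.05, and in controls it called 1 of 7. Without control replicate A of both diets the control value was 1.21 and still called. The knockout value passed the threshold with DESeq2 (1.12, adjusted p = 0.0132), limma-voom (adjusted p = 0.00125), a filter at 1 CPM (adjusted p = 0.0472) or only the compared groups fitted (adjusted p = 0.00096). Diet and chow livers come from different tables, which cannot be told apart from the diet.

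Within the diet table the log2 difference of Lpl, western minus high-fat diet, did not pass the threshold. It was 1.09 ± 0.40 in knockouts (SE, adjusted p = 0.0939) and 1.44 ± 0.38 in controls (adjusted p = 0.0639). edgeR called 0 of 7 members here in either genotype, with 3 in knockouts and 2 in controls at an unadjusted p under 0.05, while DESeq2 called 2 and 1 and limma-voom 2 in each. Of all genes 8.45% were called in knockouts and 2.09% in controls. Without control replicate A of both diets the Lpl difference in controls was 1.42 ± 0.18 and past the threshold (adjusted p = 0.000465). Without high-fat control replicate A alone it was 1.90 ± 0.34 and also past it (adjusted p = 0.00683), and without western diet control replicate A alone it was 0.96 ± 0.30 and not called (adjusted p = 0.122). Over chow, high-fat diet gave Lpl log2 fold changes of 0.03 ± 0.30 in knockouts and 0.26 ± 0.29 in controls (SE, adjusted p = 0.961 and 0.646). There 0 members were called, 0 had an unadjusted p under 0.05, DESeq2 and limma-voom also called 0, and 15.4% and 8.46% of all genes were called.

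The control libraries that stood apart in Lpl also stood apart in fat markers. Replicate A of the western diet controls had 207 CPM of Lpl, 60.2 to 74.1 CPM in the others, with 113 CPM of summed adipocyte markers, 12.9 to 50.04 CPM in the others, and all 7 markers were highest in it. Replicate A of the high-fat controls had 74.8 CPM of Lpl, 23.3 to 29.7 CPM in the others, with 75.3 CPM of adipocyte markers, 13.4 to 20.9 CPM in the others, and 6 of the 7 were highest in it. Both also had the most macrophage marker reads of their group, 976 CPM (534 to 776 CPM in the others) and 931 CPM (570 to 700.0 CPM in the others). Western diet knockouts, whose Lpl was also high at 69.3 to 83.2 CPM, had 16.3 to 22.7 CPM of adipocyte markers, within the range of fasted controls (13.2 to 26.01 CPM). Summed skeletal muscle markers, 5 genes, ran from 0.304 to 39.4 CPM in western diet knockouts, with a median of 1.01 CPM. The share of the Lpl reads in replicate A that came from fat was not tested, nor was any share from muscle in western diet knockouts.

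**Figure D5:**
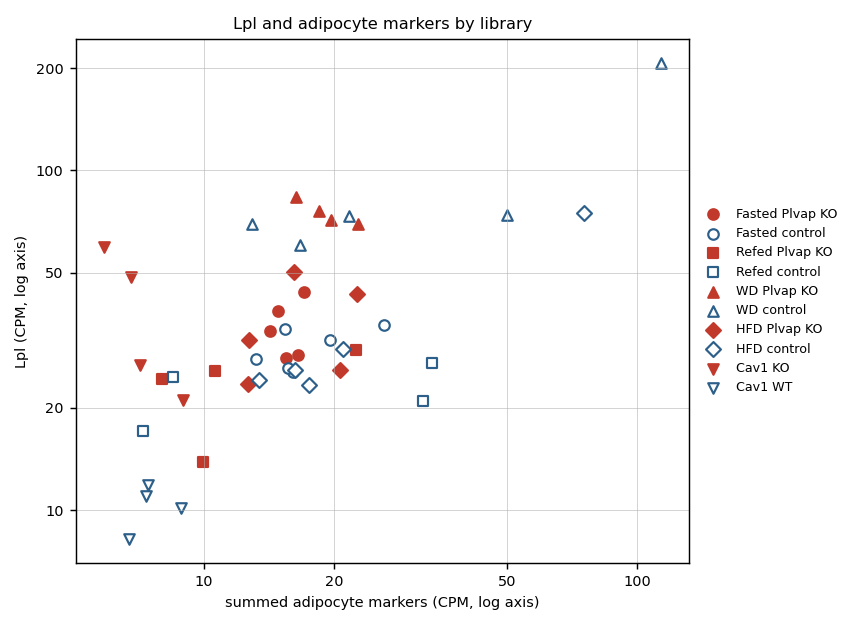
Lpl against the sum of 7 adipocyte markers (Adipoq, Plin1, Cfd, Fabp4, Retn, Lep and Cidea) in each of 46 libraries, both as CPM on log axes, with filled red symbols for knockouts and open blue symbols for controls or wild types. One western diet control and one high-fat control lie far to the right, and the other western diet livers of both genotypes lie at 60.2 to 83.2 CPM of Lpl with marker sums like those of other groups, apart from control replicate B with 50.04 CPM of markers.

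Lipc had the same signs as Lpl on western diet, with smaller estimates and no call. Western diet knockouts had 267, 288, 241 and 250.01 CPM, against 215, 208, 191, 159 and 167 CPM in high-fat knockouts. Western diet controls had 184, 259, 309, 330.04 and 232 CPM, against 209.9, 187, 168, 168 and 241 CPM in high-fat controls. Knockout libraries did not overlap and control libraries did. The log2 difference was 0.46 ± 0.15 in knockouts (SE, adjusted p = 0.0542) and 0.43 ± 0.14 in controls (adjusted p = 0.12). The knockout value lay at the threshold, and 9 alternatives, DESeq2 (0.48, adjusted p = 0.0235) and limma-voom (0.43, adjusted p = 0.036) among them, called it. Western over chow it was 0.39 ± 0.14 in knockouts and 0.36 ± 0.13 in controls (SE, adjusted p = 0.139 and 0.146), and high-fat over chow -0.08 ± 0.13 and -0.06 ± 0.13 in the same order.

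Across all 10 groups the levels of most neighbours in rank overlapped. For Lpl the breaks lay between western diet knockouts and Cav1 knockouts, and between refed controls and Cav1 wild types. For Lipc they lay between western diet knockouts (262 ± 20.7 CPM) and fasted controls (205 ± 22.2 CPM), and between Cav1 knockouts (128 ± 17.7 CPM) and refed knockouts (86.5 ± 14.2 CPM; SD, n = 4, 6, 4 and 4). For Angptl4 the one break lay between high-fat knockouts (281 ± 56.2 CPM) and Cav1 wild types (102 ± 19.5 CPM; SD, n = 5 and 4). Stock, table and the labelled fast of the Cav1 pair differ from the other groups together and cannot be told apart. Gpihbp1, Lmf1, Angptl8 and Apoc2 had no break. The upper break of Lpl and that of Lipc did not part all groups above from all below. For Lpl, high-fat controls reached 74.8 CPM, above the lowest western diet knockout at 69.3 CPM. For Lipc, fasted knockouts reached 246 CPM, above the lowest western diet knockout at 241 CPM, and western diet controls went down to 184 CPM.

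Other genes of the pathway were read from a list of 14 modulators of lipases and their lipoproteins. edgeR called 0 of the 14 in each of the 4 Plvap comparisons, with 2 fasted, 1 refed, 2 on western and 3 on high-fat diet at an unadjusted p under 0.05, and the median log2 fold changes of the list were -0.05, -0.14, -0.12 and 0.08, against -0.01, 0.01, -0.02 and 0.01 over all genes. The mean Plvap effect over the 4 states called 1 higher and 1 lower, where 5.58% of all genes were called, and the lower one was Apoa4 (-0.70 ± 0.17, SE, adjusted p = 0.0111). In Cav1 knockouts 3 of 14 were called, where 4.68% of all genes were, with a list median of -0.12 against 0.02 over all genes. Apoa4, an apolipoprotein of triglyceride-rich particles, was higher (log2 fold change 2.62 ± 0.17, SE, adjusted p = 1.08e-05). Pcsk6, a proprotein convertase that cleaves lipases and their inhibitors (-1.05 ± 0.14, adjusted p = 0.00139), and Apoa5, an activator of lipoprotein lipase (-0.77 ± 0.16, adjusted p = 0.0191), were lower. Apoa4 was also higher on western than on high-fat diet, by 1.53 ± 0.33 in knockouts and 2.58 ± 0.33 in controls, the one call of the list in each (SE, adjusted p = 0.0136 and 0.000388). In that diet comparison 8.45% of all genes were called in knockouts and 2.09% in controls.

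On refeeding 7 of the 14 modulators were called in knockouts (5 higher, 2 lower) and 9 in controls (7 higher, 2 lower), with list medians of -0.03 and 0.39, against 0.00 and 0.01 over all genes. Of all genes tested, 47.2% in knockouts and 46.9% in controls were called. Sel1l, which with LMF1 brings lipoprotein lipase out of the endoplasmic reticulum, rose by 1.94 ± 0.21 in knockouts and 1.45 ± 0.20 in controls. The convertases Furin (+0.70 and +0.76) and Pcsk6 (+0.97 and +0.88) rose, and Apoa5 fell (-0.96 and -0.89), each in knockouts and controls in that order and with adjusted p-values of at most 5.08e-05 in edgeR.

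Angptl4 is a target of peroxisome proliferator-activated receptors, and 12 other such targets that respond to fasting were set beside it. In fasted Plvap knockouts 3 of 12 fell and 0 rose (median log2 fold change of the list -0.61, against -0.01 over all genes), where 2.25% of all genes were called. Among those that fell were Cyp4a14 (-1.31 ± 0.22, SE, adjusted p = 0.0102) and Cpt1a (-0.39 ± 0.09, adjusted p = 0.0393), which encode enzymes of fatty acid oxidation. Angptl4 had +0.28 and was not called. In the refed, western and high-fat pairs edgeR called 0 of 12, with 6, 5 and 0 at an unadjusted p under 0.05 and list medians of -0.50, -0.51 and -0.12. The mean Plvap effect over the 4 states called 4 of 12, all lower, and 5.58% of all genes. These were Cyp4a14 (-0.92 ± 0.17), Acot1 (-1.203 ± 0.277), Plin2 (-0.58 ± 0.14) and Ehhadh (-0.75 ± 0.19; SE, adjusted p = 0.000845, 0.00682, 0.00715 and 0.0135). On refeeding 4 of 12 fell in knockouts and 7 in controls, with Pdk4 at -1.70 ± 0.41 and -2.03 ± 0.39 (SE), and 0 rose. The list medians were -0.20 and -0.43 in the same order, and of all genes 47.2% in knockouts and 46.9% in controls were called in either direction. Of the 11 tested lipogenic genes that respond to insulin and carbohydrate, 8 rose on refeeding in each genotype, Fasn by 3.11 ± 0.34 in knockouts and 2.88 ± 0.32 in controls (SE), with list medians of 1.60 and 1.35.

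Receptors that take up lipoproteins and their remnants were read from a list of 8. In the 4 Plvap pairs edgeR called 0 of 8, with 2 fasted, 0 refed, 0 on western and 3 on high-fat diet at an unadjusted p under 0.05. The mean Plvap effect over the 4 states called 1 of 8, where 5.58% of all genes were called: Scarb1, which encodes a receptor for high density lipoprotein, was higher (0.27 ± 0.07, SE, adjusted p = 0.0172). In Cav1 knockouts 1 of 8 rose, also Scarb1 (0.46 ± 0.10, SE, adjusted p = 0.0299), where 4.68% of all genes were called, and the list median was 0.26. On refeeding 3 of 8 rose in each genotype, with list medians of 0.31 in knockouts and 0.28 in controls, a count below the 47.2% and 46.9% of all genes called in either direction. Lrp1, which encodes a receptor for remnants, had 0.79 ± 0.16 in knockouts and 0.46 ± 0.16 in controls (SE, adjusted p = 0.000126 and 0.015). On western against high-fat diet Sort1, which encodes a sorting receptor, fell in knockouts (-0.89 ± 0.22, SE, adjusted p = 0.0199), and Sdc1, which encodes a proteoglycan that binds remnants, rose in controls (0.77 ± 0.17, SE, adjusted p = 0.0146).

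The genes most like each member were read from deviations of log2 CPM from the group means over 46 libraries, among 11363 genes, as a description. Libraries share depth, table and cell makeup in these values. Gpihbp1 went with Ndufa12 (Pearson r = 0.81), Pih1d1 (0.80) and Ndufb10 (0.78). Ndufa12 and Ndufb10 encode subunits of respiratory complex I. In fasted Plvap knockouts, where Gpihbp1 was higher, Ndufa12 had a log2 fold change of 0.00 ± 0.09 and Ndufb10 of 0.11 ± 0.09 (SE, adjusted p = 0.992 and 0.55). Angptl4 went with Lpin2 (0.81), Cln8 (0.76) and G6pc (0.75), and Angptl8 with Tbx3 (0.81), Inhbe (0.75) and Ccn1 (0.74). Lpl was most like the macrophage gene C1qa (0.72), Lipc like Fam210a (0.72), Lmf1 like the lipid droplet gene Bscl2 (0.70) and the Apoc2 row like the noncoding Ftx (0.62). Within single tables these values varied. For Ndufa12 with Gpihbp1 they were 0.61 to 0.85, for Lpin2 with Angptl4 0.24 to 0.96 and for Tbx3 with Angptl8 0.60 to 0.95. For C1qa with Lpl they were 0.25 to 0.92, for Fam210a with Lipc 0.17 to 0.89, for Bscl2 with Lmf1 0.16 to 0.88 and for Ftx with Apoc2 -0.016 to 0.76.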

How the data were processed

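The authors deposited 4 tables of whole-number read counts per gene with summed exon lengths in bases. Per the submitters' processing notes, STAR 2.7.8a and featureCounts 2.0 were used with GRCm39, and FastQC 0.11.9 and MultiQC 1.10.1 checked quality. Per the labels' protocols, libraries came from snap-frozen liver with a NEBNext Ultra RNA kit. Strand setting and annotation release are not given in the sources used here. Ensembl identifiers were matched to symbols for 52083 of 55416 genes, and all 7 members matched once.

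Counts were analysed in R 4.3.3 with edgeR 4.0.16: TMM scaling, a filter on low counts (minimum count 10, minimum total 15), robust dispersions, quasi-likelihood F-tests and Benjamini-Hochberg adjustment over all genes tested, with a threshold of 0.05. All 7 members passed the filter in every comparison. Knockout and control, and both diets, were compared within a table. Comparisons with fasted chow livers span tables, and those with chow share the fasted libraries. Printed CPM use TMM over 46 libraries, and log2 CPM a prior count of 2. Standard errors are the absolute log2 fold change over the root of F. DESeq2 1.42.0 and limma 3.58.1 (voom with quality weights) were alternatives, besides other scalings and filters, no filter, a replicate block, fits of the compared groups only, a removed length trend and leaving out single libraries. The removed length trend, and leaving out the 2 libraries highest in adipocyte markers, were chosen after the data were seen. The main edgeR test was run on simulated counts for some of the comparisons. The alternatives and the descriptive steps were not tested that way.

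Replicate letters were checked for pairing by the correlation of deviations from group means. Same-letter refed livers correlated at 0.207 to 0.249 in all 4 pairs, and letters of the other tables did not pair. Of 85 pairs of libraries within groups, 0 were identical. The labels name separate samples but not separate litters or days, so p-values measure the spread between these samples. For the Cav1 and refed pairs the labels conflict on the length of the fast, and the time given for each sample was used.

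Members, lists and tests were chosen with earlier results of these data known. Named genes were the 7 members, Plvap and Cav1, up to 4 called genes of smallest p per list and comparison, and the 3 genes whose deviations correlated best with each member; called cell markers were named after their values were seen. Motifs were searched in the RefSeq promoter table of GRCm38.p6, which holds 4 of the 7 members. Some genes of the lists are not reported here by name.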

Additional observations from a re-analysis of the deposited data

Results flagged for a closer look

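In 5 of 70 sets, each a member in a group of 4 to 6 samples, a library stood far from the rest of its group, by the gap to its nearest neighbour over the range of the group. Chance gives this in about 1 in 20 sets. Lpl stood apart in western diet control replicate A, at 207 CPM with 60.2 to 74.1 CPM in the others, and in high-fat control replicate A, at 74.8 CPM with 23.3 to 29.7 CPM in the others. Both libraries had the most adipocyte marker reads of their group, 113 and 75.3 CPM. Lmf1 stood apart in fasted control replicate E, at 33.6 CPM with 24.4 to 27.2 CPM in the others. Angptl4 was low in western diet knockout replicate B, at 188 CPM with 382.3 to 412.1 CPM in the others. Angptl8 was high in western diet control replicate E, at 39.7 CPM with 8.48 to 16.1 CPM in the others. What set these libraries apart was not tested.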

How the results depend on the processing

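All 126 single-gene values were recomputed, giving 2730 alternative values, of which 187 reversed in sign, 0 of them of a called result. The 66 values detailed here have 1240 alternative values with 72 reversals. They include all 11 called ones, and 6 of these were called under every alternative run. The counts of members called changed as follows. In Cav1 knockouts the count was 0 without the filter on low counts. For western against high-fat diet in knockouts it was 2 with DESeq2, limma-voom or only the compared groups, and 1 with DESeq2 size factors, a filter at 1 CPM, no filter or the length trend removed. In controls it was 1 with DESeq2, and 2 with limma-voom or without the 2 libraries highest in adipocyte markers. For western diet against chow it was 1 in knockouts with DESeq2, a filter at 1 CPM or only the compared groups, 2 in knockouts with limma-voom, and 2 in controls without the 2 adipocyte-rich libraries. For high-fat diet against chow in knockouts it was 1 with only the compared groups. Leaving out single libraries gave 0 to 1 members called in fasted Plvap knockouts, in Cav1 knockouts and for western against high-fat diet in either genotype, and 1 to 2 for western diet against chow in controls. Refed against fasted, where 4 members were called, the count in knockouts was 3 without the filter or with the replicate block, and in controls 3 with limma-voom and 5 with only the compared groups or the length trend removed. In knockouts the length trend removed cost Lmf1 its call and added Apoc2, and only the compared groups cost Angptl8 and added Lpl. Leaving out single libraries gave 3 to 5 in knockouts and 3 to 4 in controls.

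Signs that turned belonged to uncalled values. With the length trend removed they were -0.042 (Angptl8, fasted Plvap knockouts), -0.026 (Lpl, refed), -0.015 (Gpihbp1, western diet), 0.033 (Lpl, high-fat diet), -0.16 (Apoc2, Cav1) and -0.026 (Lpl, high-fat diet against chow in knockouts). With limma-voom they were -0.041 (Angptl8, fasted), 0.75 (Angptl8, refed), 0.056 (Lpl, western diet), 0.10 (Lpl, high-fat diet) and, in Cav1 knockouts, -0.0090 (Gpihbp1), -0.0076 (Lmf1) and -0.20 (Apoc2). Without the filter Lmf1 in Cav1 knockouts was -0.011. Without the 2 adipocyte-rich libraries Lpl was 0.11 on western diet, 0.42 on high-fat diet and -0.20 for high-fat diet against chow in controls. The Angptl8 change on refeeding lost its call, in knockouts, without the filter (1.84, adjusted p = 0.0672) or with only the compared groups (1.85, adjusted p = 0.0746), and in controls with limma-voom (1.38, adjusted p = 0.071). The cause was not tested.

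With the replicate letter as a replicate block, Angptl8 in fasted Plvap knockouts was -0.058 and Lpl on high-fat diet 0.13. Letters did not pair there. Apart from the Angptl8 change on refeeding in knockouts, the replicate block changed no call of a member among refed livers. For that change the block spanned tables whose letters did not pair.

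Leaving out 1 library at a time moved uncalled values across 0. For Plvap knockouts the ranges of log2 fold change were, fasted, -0.13 to 0.041 (Lipc) and -0.28 to 0.43 (Angptl8), and refed, -0.10 to 0.25 (Lpl), -0.16 to 0.18 (Gpihbp1), -0.60 to 0.17 (Angptl4) and -1.31 to 0.59 (Angptl8). On western diet they were -0.50 to 0.11 (Lpl), -0.10 to 0.14 (Gpihbp1), -0.12 to 0.080 (Lipc) and -0.28 to 0.089 (Angptl4), and on high-fat diet -0.20 to 0.43 (Lpl), -0.020 to 0.27 (Gpihbp1) and -0.12 to 0.027 (Lipc). In Cav1 knockouts they were -0.066 to 0.16 (Gpihbp1), -0.023 to 0.047 (Lmf1), -0.37 to 0.23 (Angptl8) and -0.15 to 0.32 (Apoc2). For high-fat diet against chow they were -0.14 to 0.15 (Lpl, knockouts), -0.16 to 0.0060 (Lipc, knockouts) and -0.20 to 0.37 (Lpl, controls).

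Over all genes, the fasted Plvap comparison called 289 genes, and 713 with DESeq2, 490 with limma-voom, 861 without the filter, 713 with the replicate block and 90 to 550 without 1 library. The Cav1 comparison called 607 genes, and 939 with DESeq2, 1279 without the filter and 330 to 671 without 1 library. The Apoc2 row held the fewest counts of the 7 members, at 13 to 95 per library. The parts of depth and of the exon bases shared with Gm44805 in this were not tested.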
